A study of Mus musculus with 20 samples.

Results

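The genes of the TNF ligand superfamily and of its receptors were examined in cultured mouse eosinophils with and without the cytokine IL-33. Members were all genes on the array table whose only annotated symbol starts with Tnfsf or Tnfrsf, together with Tnf, Lta, Ltb, Ltbr, Fas, Fasl, Cd40, Cd40lg, Cd27 and Cd70. This rule found 37 of the 17771 genes with an unambiguous probe set. They comprised 13 ligands, 23 receptors and 1 RNA from the strand opposite a ligand gene, and each was read by 1 probe set. The cells were eosinophils grown for 12 days from the bone marrow of wild-type mice (Dusp5+/+) or knockout mice (Dusp5-/-), 5 mice per genotype. Dusp5 encodes a nuclear phosphatase that switches off the kinases ERK1 and ERK2. From each mouse, some cells stayed in medium alone and some received IL-33 at 25 ng/ml for 4 hours, which made 4 groups of 5 one-colour Affymetrix arrays. The sources used here give no age, sex or strain background and do not say which part of Dusp5 is deleted.

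TNF family ligands are mostly membrane-bound trimers, and some are cut from the cell surface to act at a distance. Their receptors fall into those with a death domain, which can recruit caspases, and those that bind TRAF adaptors and switch on NF-kB. Many members pass costimulatory signals between antigen-presenting cells and lymphocytes, and TNF itself is among the early cytokines of an inflamed tissue. Eosinophils carry the IL-33 receptor, whose signal also reaches NF-kB and the MAP kinases.

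Promoter sequences are shown for the ligands and the receptor with the largest IL-33 changes described here: Tnf, Ltb and Tnfrsf9. Each is the stretch of 250 bases before the annotated start, written 5′ to 3′ on the strand of the gene, from RefSeq on GRCm38.p6. Capitals mark matches to the NF-kB consensus or to an AP-1 site. The AP-1 site was searched as TGACTCA or TGAGTCA, the NF-kB consensus by its usual degenerate form, and both on either strand.
Tnf (chr17:35202008-35202257, minus strand): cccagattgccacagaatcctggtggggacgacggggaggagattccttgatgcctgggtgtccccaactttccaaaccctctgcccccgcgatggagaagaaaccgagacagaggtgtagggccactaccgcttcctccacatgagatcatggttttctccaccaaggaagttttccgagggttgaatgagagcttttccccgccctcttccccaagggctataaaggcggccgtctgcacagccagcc
Ltb (chr17:35194257-35194506, plus strand): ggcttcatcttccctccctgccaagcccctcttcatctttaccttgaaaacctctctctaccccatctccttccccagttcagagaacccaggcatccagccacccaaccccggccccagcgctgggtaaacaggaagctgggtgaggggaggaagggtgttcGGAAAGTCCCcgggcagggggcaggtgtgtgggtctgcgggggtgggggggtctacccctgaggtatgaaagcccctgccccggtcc
Tnfrsf9 (chr4:150927749-150927998, plus strand): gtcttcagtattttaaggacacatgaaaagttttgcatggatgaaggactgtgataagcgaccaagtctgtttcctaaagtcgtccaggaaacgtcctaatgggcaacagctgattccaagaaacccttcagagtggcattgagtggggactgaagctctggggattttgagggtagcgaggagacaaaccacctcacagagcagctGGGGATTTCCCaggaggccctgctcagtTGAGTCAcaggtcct

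The Ltb stretch held 1 NF-kB match, from base -87 to base -78 relative to the start. The Tnfrsf9 stretch held a pair of overlapping NF-kB matches from base -43 to base -33 and an AP-1 site from base -15 to base -9. This gene has 2 annotated starts, and the one with matches is shown. The Tnf stretch held no match to either, which says only that these letters are not in this window. For 28 of the 37 members, 32 windows of 300 bases (250 before and 50 after a start) were given, since some genes have several starts. NF-kB matches lay in 4 of the 32 windows, of 4 members (Ltb, Tnfrsf25, Tnfrsf8 and Tnfrsf9), and in 8.46% of all 32851 promoter windows. AP-1 sites lay in 6 of the 32, of 5 members (Fas, Tnfrsf8, Tnfrsf9, Tnfsf13b and Tnfsf14), and in 5.2% of all windows. A match is a description of the letters and was not tied to any change by a test.

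Values are deposited log2 expression values, so a difference of 1 is a doubling, and levels of different genes were not set against each other. Precision is limited by the 5 arrays of each group. No background reading was used here, so a value was called dim when it was under the 40th percentile of its array, which lay between 3.56 and 3.68. Dusp5 averaged 8.15 in untreated and 9.77 in IL-33-treated wild-type cells, and 4.40 and 4.95 in knockout cells. The eosinophil genes Epx, Prg2, Siglecf, Ccr3 and Il5ra were bright on all 20 arrays. Of 12 measured T, B and NK cell markers, 6 were bright on all arrays, while Cd8a and Ms4a1 were dim on all 20. The mean of that list lay between 3.83 and 4.20 over all arrays. All 12 measured monocyte, macrophage and dendritic markers and all 11 neutrophil markers were bright on every array. Of 9 measured mast cell and basophil markers, 6 were bright on all 20 arrays (Kit, Cpa3, Mcpt8, Fcer1a, Ms4a2 and Hdc), Tpsb2 on 17 and Tpsab1 on 2, and Mcpt4 was dim on all 20. Of 6 measured erythroid and megakaryocyte markers, 4 were bright on all 20 arrays, and so were 4 of 8 stromal and endothelial markers. In each of these lists 2 were dim on all 20. In such bulk samples, fewer cells of a type and less RNA per cell cannot be told apart. Arrays correlated with the rest of their group at a mean of 0.984 to 0.992, and both arrays of wild-type mouse 2 had the lowest value.

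Of the 37 members, 24 were bright on at least 5 arrays and were tested, and 13 were dim on all 20. After IL-33, 13 tested members rose and 3 fell in wild-type cells, and 11 rose and 3 fell in knockout cells. Rises made up 16.1% and falls 26.7% of the 11766 genes tested in wild-type cells, and 18.9% and 33.2% in knockout cells. The tested members had a median change of 0.32 (wild type) and 0.25 (knockout), against -0.05 and -0.08 for all tested genes. These counts are a description, because members that are bright only after IL-33 could enter the test only by differing. Tnfrsf9 and Tnfrsf25 entered in this way: they were bright on all 10 IL-33 arrays, but on 2 and 1 of the 10 untreated arrays. A call means an adjusted p under 0.05 in the limma fit over all tested genes.

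The set called higher in both genotypes held 11 members: Tnf, Ltb, Tnfsf4, Tnfsf9, Cd40, Fas, Tnfrsf1b, Tnfrsf9, Tnfrsf14, Tnfrsf23 and Tnfrsf25. Tnfrsf13c and Tnfrsf18 were called lower in both. Calls in wild-type cells alone were Cd40lg and Tnfrsf21, which rose, and Tnfrsf22, which fell. The call in knockout cells alone was the fall of Tnfrsf11a. None of these differences between genotypes passed the test of the difference itself, which is given further on. Tnfsf14 among the ligands, and Ltbr, Tnfrsf1a, Tnfrsf4, Tnfrsf8, Tnfrsf12a and Tnfrsf13b among the receptors, were called in neither genotype.

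**Figure D1:**
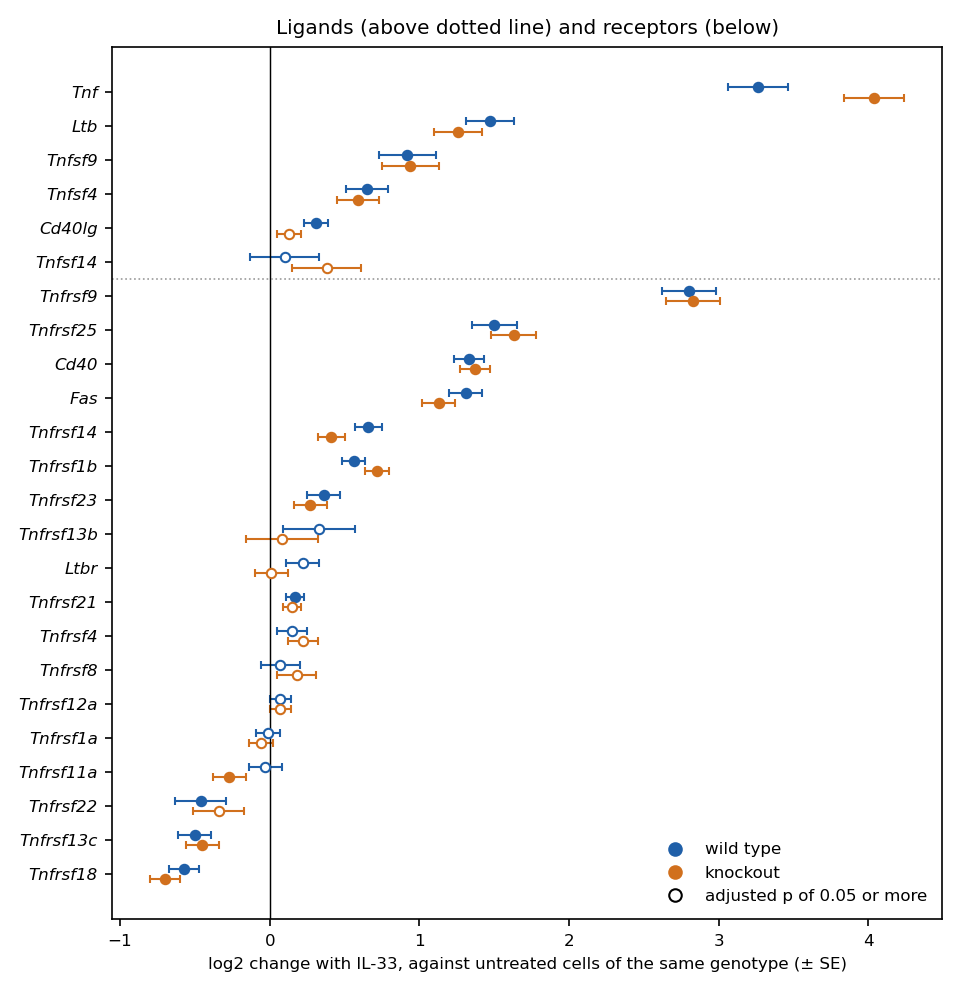
Log2 change with IL-33 (x axis) of the 24 tested members, ligands above the dotted line and receptors below it, in wild-type (blue) and knockout (orange) cells, 5 mice each. Points are limma estimates with SE bars, and open points have an adjusted p of 0.05 or more: Tnf lies farthest to the right in both genotypes, at 3.26 and 4.04, and Tnfrsf18 farthest to the left, at -0.57 and -0.70.

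The ligands were led by Tnf, the founding cytokine of the family (probe set 1419607_at). Among the 6 tested ligands, 5 rose in wild-type and 4 in knockout cells, and none fell. In wild-type mice 1 to 5, Tnf read 5.81, 5.89, 5.68, 5.77 and 5.53 in medium and 9.23, 9.76, 8.28, 9.16 and 8.55 after IL-33. In knockout mice 1 to 5 it read 5.42, 5.46, 5.69, 5.92 and 6.03 in medium and 9.64, 9.62, 9.95, 9.89 and 9.64 after IL-33. Every IL-33 array lay above every untreated array, and the IL-33 arrays spread more widely in wild-type (SD 0.59) than in knockout cells (SD 0.16). The change was 3.26 ± 0.20 in wild-type cells (SE, 9.59-fold, adjusted p 6.4e-11). It was 4.04 ± 0.20 in knockout cells (16.5-fold, adjusted p 1.7e-12). Within single mice the rise ran from 2.60 to 3.87 in wild-type and from 3.62 to 4.26 in knockout cells.

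Ltb (probe set 1419135_at) encodes lymphotoxin beta, which anchors the lymphotoxin heterotrimer in the membrane. It was already bright in medium, at 10.17, 10.65, 9.79, 10.38 and 10.09 in wild-type mice 1 to 5 and 10.24, 10.73, 10.37, 10.81 and 10.71 in knockout mice 1 to 5. After IL-33 it read 11.72, 11.97, 11.28, 11.87 and 11.62 in the wild-type mice and 11.59, 12.10, 11.52, 12.07 and 11.89 in the knockout mice. Treated and untreated arrays did not overlap in either genotype, and mice that were high in medium tended to be high after IL-33. Ltb rose by 1.47 ± 0.16 in wild-type cells (2.78-fold, adjusted p 4.6e-07) and by 1.26 ± 0.16 in knockout cells (2.40-fold, adjusted p 2.3e-06). The rise within a mouse was narrow in range, at 1.32 to 1.55 in wild-type and 1.15 to 1.36 in knockout mice. Its partner in the heterotrimer, Lta, was dim on all 20 arrays, at 3.07 to 3.53.

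The ligands of the costimulatory receptors OX40 and CD137 rose less. Tnfsf9, the CD137 ligand, averaged 5.18 ± 0.34 (SD, n = 5) in untreated and 6.09 ± 0.23 in treated wild-type cells, and 4.72 ± 0.45 and 5.67 ± 0.28 in knockout cells. Its change was 0.92 ± 0.19 (adjusted p 7.1e-04) and 0.94 ± 0.19 (adjusted p 4.0e-04), in that order. It rose in all 10 mice. Tnfsf4, the OX40 ligand, went from 4.73 ± 0.13 to 5.37 ± 0.27 in wild-type and from 4.82 ± 0.13 to 5.42 ± 0.35 in knockout cells. The changes of 0.65 ± 0.14 (adjusted p 9.8e-04) and 0.59 ± 0.14 (adjusted p 0.00153) were past the test, and the groups did not overlap.

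Cd40lg, the ligand of CD40 that helper T cells display, lay just above the dim range, at 3.91 ± 0.15 in untreated wild-type cells. It rose by 0.31 ± 0.08 in wild-type cells (adjusted p 0.00378). In knockout cells the difference was 0.13 ± 0.08 (adjusted p 0.175), and the interval of the difference between these responses ran from -0.41 to 0.06. Tnfsf14 encodes LIGHT, which binds the receptors encoded by Tnfrsf14 and Ltbr. It differed by 0.10 ± 0.23 in wild-type cells (adjusted p 0.751) and by 0.38 ± 0.23 in knockout cells (adjusted p 0.170). With the mouse as a block, the Tnfsf14 difference in knockout cells was past the test, at an adjusted p of 0.00234 with a fixed and 0.0285 with a random block, and it was at 0.0418 with only the groups compared in the fit. All 5 knockout mice were higher after IL-33, by 0.20 to 0.55, against 3 of 5 wild-type mice.

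Among the 18 tested receptors, 8 rose and 3 fell in wild-type cells, and 7 rose and 3 fell in knockout cells. Tnfrsf9 (probe set 1428034_a_at) encodes CD137, a costimulatory receptor, and had the largest receptor change. In medium it read 3.16, 3.17, 3.19, 3.94 and 3.55 in wild-type mice 1 to 5 and 3.61, 3.44, 3.32, 3.17 and 3.30 in knockout mice 1 to 5. After IL-33 it read 6.33, 5.67, 6.20, 6.49 and 6.34 in wild-type and 6.39, 5.79, 6.76, 6.04 and 6.02 in knockout cells. In each genotype 4 of 5 untreated arrays were dim, while no IL-33 array was. With dim arrays set to their 40th percentile, Tnfrsf9 was at least 5.85-fold higher in wild-type and at least 6.09-fold higher in knockout cells. The fitted changes were 2.80 ± 0.18 (adjusted p 1.9e-10) and 2.83 ± 0.18 (adjusted p 1.1e-10).

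Tnfrsf25 (probe set 1422231_a_at) encodes DR3, a death-domain receptor with a costimulatory role in T cells and innate lymphoid cells. In medium it read 3.41, 3.23, 3.01, 3.33 and 3.64 in wild-type mice 1 to 5 and 2.98, 3.38, 2.99, 3.35 and 3.40 in knockout mice 1 to 5. After IL-33 it read 4.88, 4.68, 5.06, 4.76 and 4.75 in wild-type and 4.63, 4.56, 5.40, 5.04 and 4.64 in knockout cells. Only wild-type mouse 5 was bright in medium, and treated and untreated arrays lay apart. Tnfrsf25 was at least 2.33-fold higher in wild-type cells (fitted change 1.50 ± 0.15, adjusted p 8.2e-08). It was at least 2.40-fold higher in knockout cells (fitted change 1.63 ± 0.15, adjusted p 1.6e-08).

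Cd40 (probe set 1439221_s_at), a receptor of antigen-presenting cells, read 4.81, 5.07, 5.03, 4.74 and 4.91 in untreated wild-type mice 1 to 5 and 6.41, 6.25, 6.40, 6.15 and 6.0 after IL-33. In knockout mice it read 4.71, 4.87, 4.82, 5.04 and 4.69 in medium and 6.16, 5.96, 6.20, 6.23 and 6.43 after IL-33. Every treated array lay above every untreated array by more than the range of any group. Cd40 rose by 1.33 ± 0.10 in wild-type cells (2.52-fold, adjusted p 1.3e-09) and by 1.37 ± 0.10 in knockout cells (2.58-fold, adjusted p 5.8e-10).

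Fas (probe set 1460251_at), the death receptor that recruits FADD and caspase-8, read 7.94, 8.54, 7.91, 8.18 and 8.07 in untreated wild-type mice 1 to 5 and 9.40, 9.41, 9.30, 9.53 and 9.54 after IL-33. In knockout mice it read 8.09, 8.57, 8.25, 8.58 and 8.48 in medium and 9.72, 9.56, 9.34, 9.51 and 9.46 after IL-33. Treated arrays lay within a narrower range than untreated arrays, and above all of them. The change was 1.31 ± 0.11 in wild-type cells (2.48-fold, adjusted p 1.6e-08) and 1.13 ± 0.11 in knockout cells (2.18-fold, adjusted p 8.8e-08). Fasl, which encodes the Fas ligand, was dim on all 20 arrays, at 2.15 to 2.59.

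**Figure D2:**
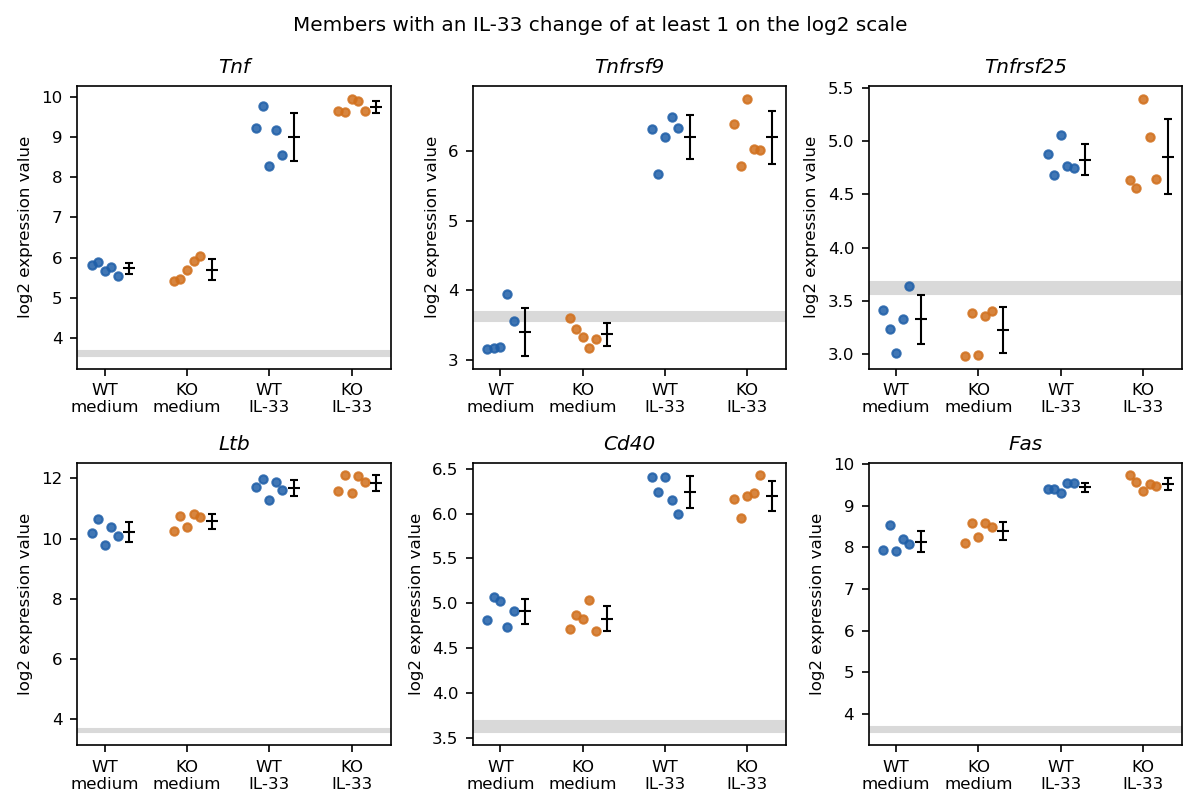
Log2 expression value on each array (points, 5 per group) of the 6 members with a called IL-33 change of at least 1, with the group mean and SD beside the points. The grey band is the range of the arrays' 40th percentiles, 3.56 to 3.68. Treated and untreated arrays do not overlap in any panel, and most untreated values of Tnfrsf9 and Tnfrsf25 lie below or within the band.

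The TNF receptors themselves differed from each other. Tnfrsf1b (TNFR2), which lacks a death domain, went from 9.11 ± 0.16 to 9.67 ± 0.10 in wild-type and from 9.07 ± 0.10 to 9.79 ± 0.08 in knockout cells. Its rise was 0.56 ± 0.08 (adjusted p 6.7e-06) and 0.72 ± 0.08 (adjusted p 1.8e-07), and was seen in all 10 mice. Tnfrsf1a (TNFR1), which carries the death domain, stayed between 7.87 and 7.95 in the 4 group means. Its change was -0.01 ± 0.08 in wild-type cells (interval -0.18 to 0.16) and -0.06 ± 0.08 in knockout cells (interval -0.22 to 0.11). Tnfrsf14 encodes HVEM, a receptor for LIGHT. It rose by 0.66 ± 0.09 in wild-type (adjusted p 6.1e-06) and 0.41 ± 0.09 in knockout cells (adjusted p 6.1e-04). Ltbr, the lymphotoxin beta receptor, differed by 0.22 ± 0.11 in wild-type cells (adjusted p 0.119) and by 0.01 ± 0.11 in knockout cells. The wild-type difference of Ltbr was past the test with the mouse as a block (adjusted p 0.0204 fixed, 0.0232 random), after quantile normalization (0.30, 0.0193) and when untreated array 3 was left out (0.30, 0.0225).

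Receptors of TRAIL went in different directions. Tnfrsf22 and Tnfrsf23 encode related decoy receptors, are alike in sequence, and could share probe signal, which was not tested. Tnfrsf23 rose from 4.08 ± 0.22 to 4.44 ± 0.12 in wild-type cells (0.36 ± 0.11, adjusted p 0.0126) and from 4.32 ± 0.24 to 4.59 ± 0.11 in knockout cells (0.27 ± 0.11, adjusted p 0.0472). The knockout call was lost without any of the untreated arrays 2, 4 and 5 or the IL-33 arrays 1, 3, 4 and 5 (adjusted p 0.0564 to 0.148). It was also lost with no dim filter (0.0623), with only the groups compared (0.0575) and with an intensity trend and robust prior (0.0512). Tnfrsf22 fell from 5.36 ± 0.29 to 4.90 ± 0.25 in wild-type cells (-0.46 ± 0.17, adjusted p 0.0355) and read 5.05 ± 0.36 and 4.70 ± 0.24 in knockout cells (-0.34 ± 0.17, adjusted p 0.0951). It was lower after IL-33 in all 10 mice, and the knockout difference was past the test with the mouse as a block (adjusted p 6.8e-04 fixed, 0.00922 random). The wild-type call was lost without any of the untreated arrays 1, 3 and 5 or the IL-33 arrays 2 and 4 (adjusted p 0.0723 to 0.0996), and under quantile normalization (-0.40, adjusted p 0.0594). Tnfrsf10b, the signalling TRAIL receptor of the mouse, was dim throughout (2.64 to 3.23), as was the ligand gene Tnfsf10 (2.57 to 3.24).

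Tnfrsf18 encodes GITR, a costimulatory receptor of T cells, and fell the most. It went from 7.72 ± 0.14 to 7.15 ± 0.22 in wild-type cells (-0.57 ± 0.10, adjusted p 1.8e-04) and from 7.77 ± 0.14 to 7.07 ± 0.16 in knockout cells (-0.70 ± 0.10, adjusted p 1.2e-05). All 10 mice were lower, by 0.38 to 0.87 on the log2 scale. Tnfrsf13c, the BAFF receptor, went from 4.04 ± 0.21 to 3.54 ± 0.10 and from 4.05 ± 0.22 to 3.60 ± 0.17. Only 1 of 5 wild-type and 3 of 5 knockout IL-33 arrays were bright for it, so it was at least 1.31-fold lower (adjusted p 0.00110) and at least 1.28-fold lower (adjusted p 0.00188). Tnfrsf11a encodes RANK, the receptor that drives osteoclast formation. It differed by -0.03 ± 0.11 in wild-type cells and fell by 0.27 ± 0.11 in knockout cells (adjusted p 0.0463). That call was lost without any of the untreated arrays 2, 4 and 5 or the IL-33 arrays 1 to 4 (adjusted p 0.0569 to 0.120), under quantile normalization (-0.17, adjusted p 0.213), with no dim filter (adjusted p 0.0612) and with an intensity trend and robust prior (0.0507).

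The remaining receptors changed little. Tnfrsf21 (DR6) rose by 0.17 ± 0.06 in wild-type cells (adjusted p 0.0412), a call that was lost without any array except untreated or IL-33 array 3 (adjusted p 0.0515 to 0.0926 for the others). The call was also lost with no dim filter (0.0667) and with only the groups compared (0.0612). In knockout cells it differed by 0.15 ± 0.06 (adjusted p 0.0622). That difference was past the test with the mouse as a block (0.0416 fixed, 0.0171 random), after quantile normalization (0.24, adjusted p 0.00224), with the filter at the 60th percentile (0.0442), without untreated array 5 (0.0393) and without IL-33 array 3 (0.0388). Tnfrsf4, the OX40 receptor, differed by 0.15 ± 0.10 (adjusted p 0.237) and 0.22 ± 0.10 (adjusted p 0.0601). The knockout difference of Tnfrsf4 was past the test with the mouse as a block (0.0467 fixed, 0.0191 random), after quantile normalization (0.34, adjusted p 0.0130), with the filter at the 60th percentile (0.0489), with only the groups compared (0.0418) and without IL-33 array 5 (0.0327). Tnfrsf12a (Fn14, the TWEAK receptor) differed by 0.07 ± 0.07 in each genotype, and the knockout difference was past the test after quantile normalization (0.20, adjusted p 0.0277). Its probe set is of a type that can also bind other transcripts. Tnfrsf8 (CD30) differed by 0.07 ± 0.13 and 0.18 ± 0.13. Tnfrsf13b encodes TACI, a receptor for BAFF and APRIL, and differed by 0.33 ± 0.24 (adjusted p 0.282) and 0.08 ± 0.24 (adjusted p 0.792). With the mouse as a fixed block, the wild-type difference of Tnfrsf13b had an adjusted p of 0.00184, and all 5 wild-type mice were higher, by 0.05 to 0.51.

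The 13 dim members were not tested, and no direction can be read from values under the percentile. Besides Lta, Fasl, Tnfsf10 and Tnfrsf10b they were the ligand genes Cd70 (2.51 to 3.11), Tnfsf8 of CD30 ligand (2.86 to 3.40), Tnfsf11 of RANK ligand (2.17 to 3.04) and Tnfsf13b of BAFF (2.48 to 3.12). The receptor genes were Cd27 (2.07 to 2.71), Tnfrsf11b of osteoprotegerin (2.33 to 3.33), Tnfrsf17 of BCMA (2.12 to 2.92) and Tnfrsf19 of TROY (1.59 to 2.11). The opposite-strand RNA Tnfsf13os lay between 2.25 and 3.11. The ligands of BAFF, RANK, FAS and TRAIL receptors that the table holds were thus all dim, while Tnfrsf13b, Tnfrsf11a and Fas were bright on every array. A dim reading is a limit of the probe set and does not show that the RNA was absent.

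Genes outside the family moved in the same comparison. Of all tested genes, 16.1% rose and 26.7% fell in wild-type cells, and 18.9% and 33.2% in knockout cells. The marker counts below are to be read beside these shares. Tested were 7 T, B and NK cell, 7 mast cell and basophil and 11 neutrophil markers. The erythroid and megakaryocyte list had 4 tested markers, and the stromal and endothelial list 5. The monocyte marker Cd14 rose by 2.13 ± 0.11 in wild-type and 2.41 ± 0.11 in knockout cells. Adgre1, of macrophages and eosinophils, rose by 0.70 ± 0.18 and 0.66 ± 0.18. In the list of 12 markers of monocytes, macrophages and dendritic cells, wild-type cells had 3 that rose and 1 that fell, and knockout cells 3 of each. The mean of that list ran from 8.15 to 8.74 in untreated and 8.47 to 8.86 in treated wild-type arrays, and from 8.32 to 8.86 and 8.45 to 8.96 in knockout arrays. For T, B and NK cell markers the means overlapped between all groups, with 2 higher and 1 lower in wild-type and 1 lower in knockout cells. For mast cell and basophil markers the mean lay between 7.87 and 8.14 in all groups, with 1 higher and 2 lower in wild-type cells and 1 higher and 3 lower in knockout cells. Eosinophil markers fell in 3 of 8 cases in each genotype, with Il5ra at -0.84 ± 0.16 and -1.08 ± 0.16. Among them the transcription factor gene Gata1, rose by 0.26 ± 0.06 (adjusted p 0.00147) and 0.24 ± 0.06 (adjusted p 0.00279). For neutrophil markers, and for erythroid and megakaryocyte markers, 0 were called in wild-type cells, and 1 of each list fell in knockout cells. For stromal and endothelial markers 1 rose in wild-type cells, and 1 rose and 1 fell in knockout cells. The part of other cells in the members' changes was not tested.

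The loss of Dusp5 gave no called member. In untreated cells, 0 members were called in limma's test and 5 of 24 had an unadjusted p under 0.05, against 1517 of 11766 genes. Of all genes, 0.017% were called higher and 0.0085% lower in knockout cells. The 5 members were Fas (0.27 ± 0.11), Ltb (0.35 ± 0.16) and Tnfrsf23 (0.24 ± 0.11), higher in knockout cells, and Tnfsf9 (-0.45 ± 0.19) and Tnfrsf13b (-0.50 ± 0.24), lower. Each had an adjusted p of 0.383, and the groups overlapped. The Fas difference was past the test without both arrays of wild-type mouse 2 (0.37, adjusted p 0.0492).

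After IL-33, 0 members were called in limma's test and 5 of 24 had an unadjusted p under 0.05, against 2836 of 11766 genes. Of all genes, 0.986% were called higher and 1.22% lower in knockout cells. The 5 members were Tnf and Tnfsf14, higher in knockout cells, and Tnfrsf13b, Ltbr and Tnfsf9, lower. Tnf was higher by 0.75 ± 0.20 (1.68-fold, adjusted p 0.0504), just outside the threshold, and wild-type array 2 overlapped the knockout arrays. This difference was past the test with the mouse as a random block (adjusted p 0.0445), after quantile normalization (0.0487), with a filter at the 60th percentile (0.0385), with an intensity trend and robust prior (0.0485), without wild-type IL-33 array 2 (0.94 ± 0.17, adjusted p 0.00441) and without knockout IL-33 array 1 (0.78 ± 0.21, adjusted p 0.0344). It was not past it in the main fit or without any other IL-33 array. With single IL-33 arrays left out, the Tnf difference was as low as 0.57 and its adjusted p as high as 0.133. Of the 7 other settings it was past the test in 4, and the adjusted p reached 0.119. Ltbr differed by -0.29 ± 0.11 (adjusted p 0.126), and by -0.33 without both arrays of wild-type mouse 2 (adjusted p 0.0285). Tnfsf9 differed by -0.43 ± 0.19 (adjusted p 0.183).

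Tnfrsf13b and Tnfsf14 are given array by array because of their values, so they were chosen after those were seen. Tnfrsf13b read 8.49, 7.98, 9.14, 8.40 and 8.65 in untreated wild-type mice 1 to 5 and 9.01, 8.03, 9.41, 8.88 and 9.0 after IL-33. In knockout mice it read 8.37, 7.62, 8.37, 7.82 and 7.96 in medium and 8.59, 7.58, 8.34, 8.10 and 7.94 after IL-33. Wild-type mouse 2 lay within the knockout range, and after IL-33 the other 4 wild-type arrays lay above all knockout arrays. The same held in medium, by a narrow margin (8.40 against 8.37). The difference after IL-33 was -0.75 ± 0.24 (adjusted p 0.0835). It was past the test with a random block (adjusted p 0.0451), without wild-type IL-33 array 2 (-0.96, adjusted p 0.0132) and without knockout IL-33 array 1 (-0.87, adjusted p 0.0378). With other single IL-33 arrays left out, the difference was as small as -0.62 and its adjusted p as high as 0.200.

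Tnfsf14 read 5.76, 6.28, 5.25, 5.69 and 5.83 in untreated wild-type mice 1 to 5 and 5.83, 6.67, 5.02, 6.07 and 5.73 after IL-33. In knockout mice it read 5.85, 6.27, 5.91, 6.42 and 6.26 in medium and 6.40, 6.71, 6.18, 6.85 and 6.47 after IL-33. Wild-type mouse 2 again lay among the knockout arrays, and the other 4 wild-type IL-33 arrays lay below them. In medium the other 4 wild-type arrays also lay below all knockout arrays, by a narrow margin (5.83 against 5.85). The difference after IL-33 was 0.66 ± 0.23 (adjusted p 0.101), and 0.86 without wild-type IL-33 array 2 (adjusted p 0.0160). With other single IL-33 arrays left out, it was as small as 0.45 and its adjusted p as high as 0.227. Dusp5 itself read 8.51 and 10.23 in the cells of wild-type mouse 2, far above every knockout array. For Tnf, Tnfrsf13b and Tnfsf14 alike, the IL-33 array of wild-type mouse 2 lay outside the other wild-type arrays and inside the knockout range. The same held for 11 of the 24 tested members in that array, against 3 to 6 members in each of the other 4 wild-type IL-33 arrays. Of the 11, only Tnf, Tnfrsf13b and Tnfsf14 had no overlap between the other 4 wild-type arrays and the knockout arrays. Without regard to the knockout range, array 2 lay outside the other wild-type IL-33 arrays for 17 members. Array 3 did so for 15, and each remaining array for 4 to 6. Array 3 was at the opposite end from array 2 for Tnf (8.28), Tnfrsf13b (9.41) and Tnfsf14 (5.02).

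Marker lists of other cells also lay outside the range of the other wild-type mice in wild-type mouse 2, and not in that mouse alone. The mean of the monocyte, macrophage and dendritic list was 8.74 in its untreated and 8.86 in its IL-33 cells, above the 8.15 to 8.52 and 8.47 to 8.70 of the other wild-type mice. The mean of the T, B and NK cell list was 4.16 and 4.17, above 3.89 to 4.00 and 3.83 to 3.96. The mean of the neutrophil list was 8.75 and 8.55, below 8.81 to 9.44 and 8.58 to 9.37, and that of the stromal and endothelial list was 5.25 and 5.30, below 5.31 to 5.41 and 5.38 to 5.49. The eosinophil list, at 11.18 and 10.85, and the mast cell and basophil list, at 8.09 and 8.12, lay within the other mice. The erythroid and megakaryocyte list lay below them in medium, at 6.38 against 6.46 to 6.67, and within them after IL-33. Wild-type mouse 3 had the highest means of the wild-type mice, in medium and after IL-33, for several lists. These were the neutrophil (9.44 and 9.37), erythroid and megakaryocyte (6.67 and 6.64), stromal and endothelial (5.41 and 5.49) and mast cell and basophil lists (8.10 and 8.14). In knockout mice the monocyte, macrophage and dendritic mean ran from 8.32 to 8.86 in medium and 8.45 to 8.96 after IL-33. Wild-type mouse 2 lay within both ranges. The T, B and NK cell mean of knockout mice ran from 3.96 to 4.20 and from 3.87 to 4.11. Wild-type mouse 2 lay within the first range and above the second. The part of these cells in the values of wild-type mice 2 and 3, or in the differences between genotypes, was not tested.

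**Figure D3:**
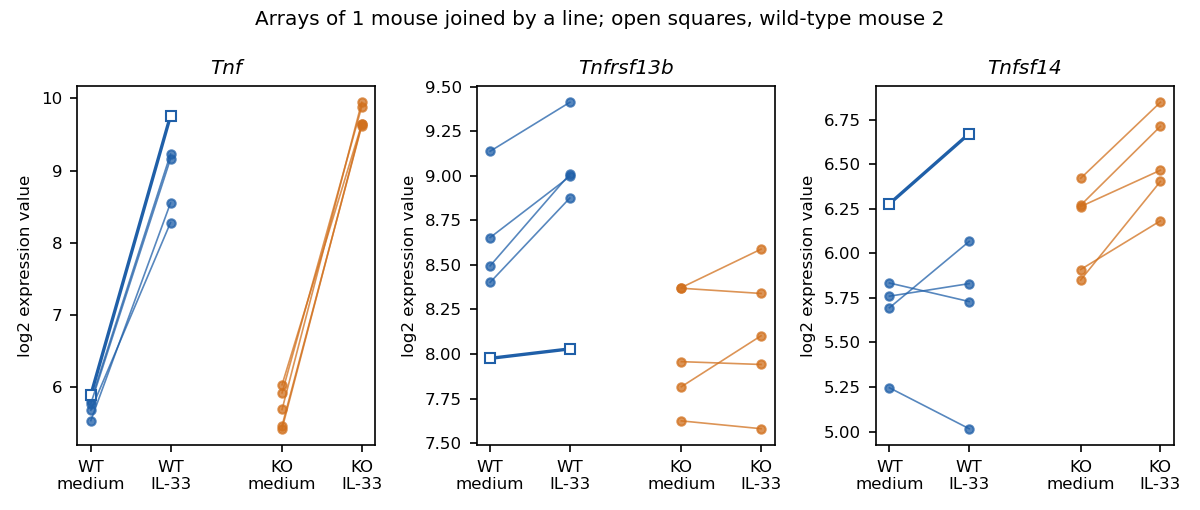
Log2 expression value of Tnf, Tnfrsf13b and Tnfsf14 in medium and after IL-33, with a line joining the arrays of 1 mouse (5 wild-type mice in blue, 5 knockout mice in orange). Open squares are wild-type mouse 2, whose IL-33 values of 9.76, 8.03 and 6.67 lie within the knockout range in the respective panels.

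**Figure D4:**
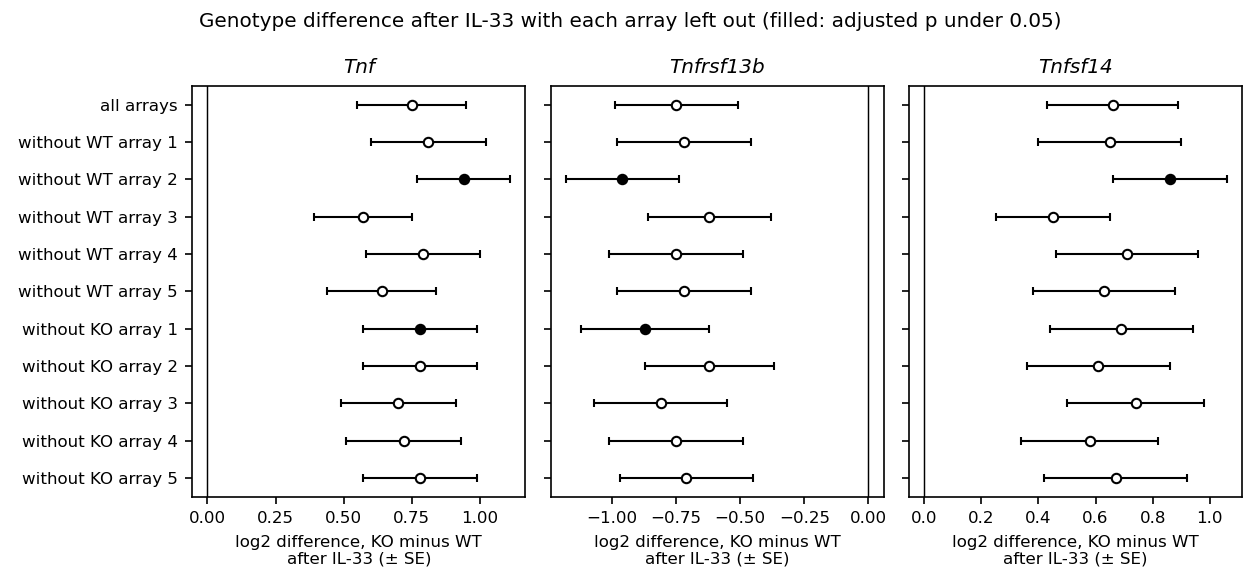
Knockout minus wild-type log2 difference after IL-33 (x axis, with SE bars) of Tnf, Tnfrsf13b and Tnfsf14, with all arrays and with each IL-33 array left out. Filled points have an adjusted p under 0.05: leaving out wild-type array 2 gave one for each gene, at 0.94, -0.96 and 0.86, and leaving out knockout array 1 gave one for Tnf and Tnfrsf13b. The smallest differences with 1 array left out were 0.57, -0.62 and 0.45.

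The difference of the IL-33 responses between genotypes was tested as an interaction. In limma's test 0 members were called and 1 of 24 had an unadjusted p under 0.05, against 568 of 11766 genes. Of all genes, 0% were called in either direction. The 2 members with the smallest p were Tnf and Tnfrsf14. The response of Tnf was larger in knockout cells by 0.78 ± 0.28 (95% interval 0.20 to 1.36, unadjusted p 0.0111, adjusted p 0.823). The response of Tnfrsf14 was smaller in knockout cells by 0.24 ± 0.13 (difference -0.24, 95% interval -0.50 to 0.02, unadjusted p 0.0683, adjusted p 0.999). Neither passed the test in any alternative. For Tnf the adjusted p was as low as 0.113 in the other settings and 0.262 with single arrays left out. For Tnfrsf14 these values were 0.296 and 0.840. The interval was -0.51 to 0.56 for Tnfrsf9, -0.69 to 0.27 for Ltb, -0.25 to 0.33 for Cd40 and -0.52 to 0.16 for Fas. Each of these intervals spans 0 and leaves room for differences up to its own ends. They come from the main fit, which does not pair the arrays of a mouse, so they include spread between mice. Within single mice, Ltb rose by 1.32 to 1.55 in wild-type and by 1.15 to 1.36 in knockout cells. The Ltb interaction had an adjusted p of 0.241 or more in the other settings, the mouse blocks among them.

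Genes that carry the signal of these receptors were followed in a list of 47, of which 43 were on the table and tested. In wild-type cells 22 rose and 3 fell, and in knockout cells 21 rose and 4 fell, against the shares of all genes given above. The median change was 0.25 and 0.23. The largest rises in wild-type cells were those of Map3k8 (3.73 ± 0.18), a kinase upstream of ERK, Traf1 (2.72 ± 0.15), a receptor adaptor, Nfkbia (2.62 ± 0.11), the inhibitor IkBα, and Relb (2.60 ± 0.12), an NF-kB subunit. In knockout cells they were those of Map3k8 (3.92 ± 0.18), Traf1 (3.25 ± 0.15), Nfkbia (2.70 ± 0.11) and Bcl3 (2.62 ± 0.09), a nuclear IkB protein. Map3k8 and Traf1 were bright on all 10 IL-33 arrays but on only 1 and 4 of the 10 untreated arrays, so their fitted changes rest partly on dim readings. Both could enter the test only through the IL-33 arrays, so the counts of this list, like those of the members, are a description. With dim arrays set to their 40th percentile, Map3k8 was at least 9.93-fold higher in wild-type and at least 11.1-fold higher in knockout cells. In the same way Traf1 was at least 6.38-fold and at least 9.03-fold higher. The genes that fell were few and are named after their values were seen. Mlkl, the executor of necroptosis, fell by 0.34 ± 0.11 and 0.36 ± 0.11. Rbck1, a subunit of the linear ubiquitin ligase, fell by 0.33 ± 0.07 and 0.30 ± 0.07, and Tab1, a partner of the kinase TAK1, by 0.32 ± 0.08 and 0.30 ± 0.08. Birc2, a ubiquitin ligase of the TNF receptor complex, fell by 0.23 ± 0.09 in knockout cells (adjusted p 0.0445).

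With the mouse as a block, 6 (fixed) or 7 (random) of these genes fell in wild-type cells and 8 or 9 in knockout cells, while 2 fell in knockout cells after quantile normalization. Between genotypes after IL-33, 1 gene of the list was called: the NF-kB subunit gene Rel averaged 7.56 ± 0.31 in wild-type and 8.27 ± 0.18 in knockout cells, a difference of 0.71 ± 0.13 (adjusted p 0.0138). The count was 0 to 4 when arrays or mice were left out, among them 0 without wild-type IL-33 array 5, 3 without wild-type IL-33 array 2 and 3 without knockout IL-33 array 1. In untreated cells and in the interaction, 0 of the list were called in limma's test, with 4 and 3 at an unadjusted p under 0.05.

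**Figure D5:**
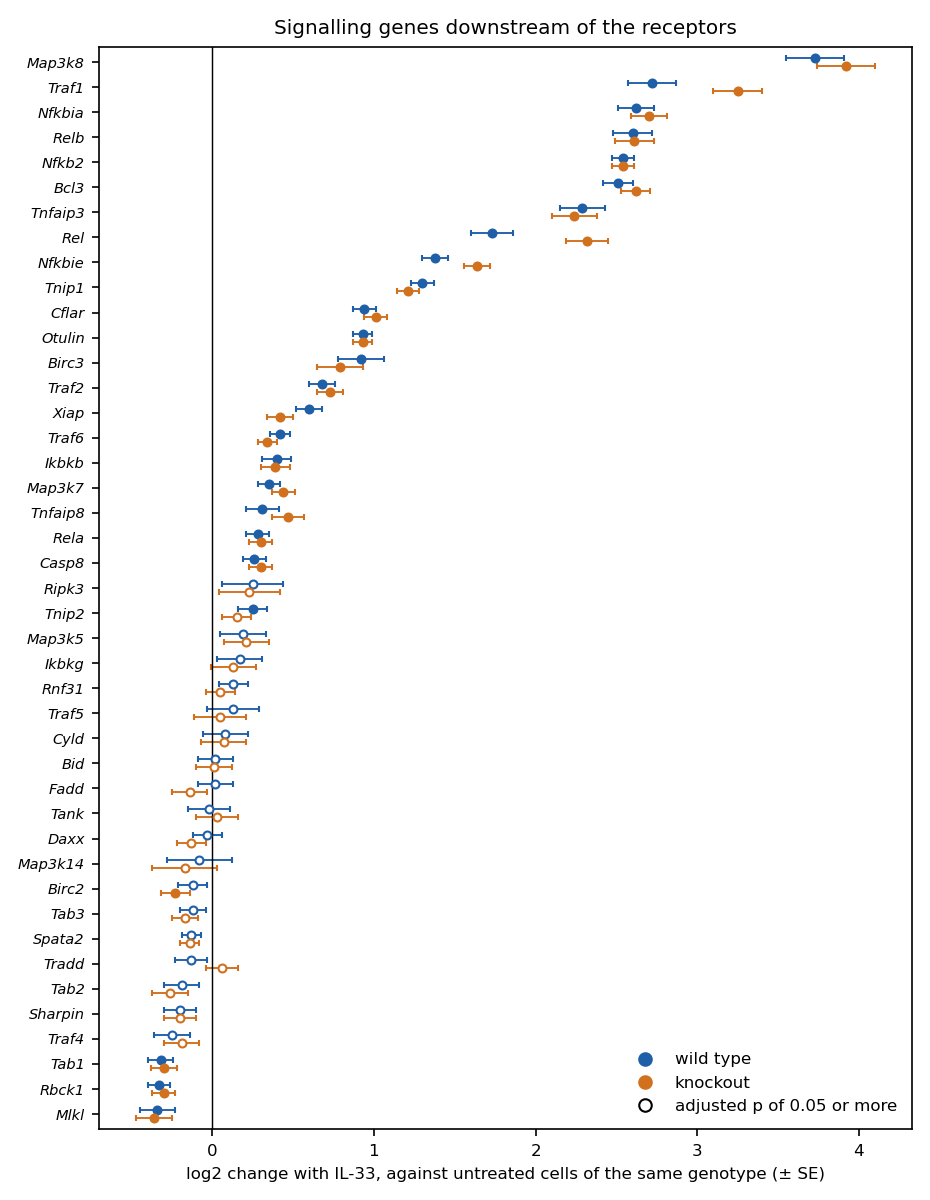
Log2 change with IL-33 (x axis) of the 43 tested genes of the receptor signalling list in wild-type (blue) and knockout (orange) cells, 5 mice each, with SE bars and open points for an adjusted p of 0.05 or more. Map3k8, at fitted changes of 3.73 and 3.92 from mostly dim untreated readings, lies farthest to the right, and the called falls, down to -0.36 for Mlkl, are small beside the rises.

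Genes linked to the release or maturation of TNF family proteins, proteases among them, were a short list, with 5 of 6 genes tested. Adam17, the protease that sheds TNF and its receptors, rose by 0.77 ± 0.07 in wild-type and 0.61 ± 0.07 in knockout cells. Furin, which processes several ligands and the ADAM precursors, rose by 0.93 ± 0.09 and 1.13 ± 0.09. Rhbdf2, which carries ADAM17 to the cell surface, differed by 0.10 ± 0.10 in wild-type cells and rose by 0.38 ± 0.10 in knockout cells, and the difference of these responses did not pass (0.28 ± 0.14, adjusted p 0.999). Furin was higher in knockout cells after IL-33, by 0.37 ± 0.09 (adjusted p 0.0449). Of 5 family genes that the name rule leaves out, 2 were tested, the ligand gene Eda and the receptor gene Relt, and neither passed in any comparison (0 of 2 in limma's test). Relt had an unadjusted p under 0.05 after IL-33, with a difference between genotypes of 0.30 ± 0.09 (adjusted p 0.0755).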

How the data were processed

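Per the labels' protocols, RNA of the 20 eosinophil samples was made into biotin-labelled cRNA (Affymetrix 3' IVT Express). Log2 values of 20630 probe sets were deposited by the authors in 1 table and used unchanged; the unit was read from its values (1.27 to 13.99, array medians 4.25 to 4.32). The sources used here do not state how the authors corrected background, summarized probes or normalized arrays.

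Probe sets with exactly 1 symbol in the platform annotation numbered 17826, against 91 with several and 2711 with none, and 17675 were matched to RefSeq (GRCm38.p6), all 37 members among them. For 54 genes with several probe sets, none a member, the one with the highest mean was used. Samples were grouped by their labels for genotype and treatment, since titles of the IL-33 samples do not name the treatment. Genes over their array's 40th percentile on at least 5 arrays (11766) were tested with limma 3.58.1 in R 4.3.3: 1 mean per group, 16 residual degrees of freedom, Benjamini-Hochberg adjustment over all of them per comparison, and calls at an adjusted p under 0.05. Intervals are 95%. A fold given as "at least" sets arrays under their percentile to it.

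The replicate number was taken to mark the mouse. The series text numbers 5 mice per genotype, and deviations of same-numbered arrays correlated at 0.262 to 0.783, each of the 10 best with its own number. The fits were checked on simulated data with independent arrays and no mouse effect, so that check says nothing about arrays that share a mouse. Every member is named, and array values are given for Tnf and each member called with an IL-33 change of at least 1. Had no member been called between genotypes, which was so, the 2 with the smallest interaction p were to be named. Of other lists, up to 4 called genes with the largest change per comparison are named, besides markers. The members, lists and tests were chosen with earlier results of these data known. Alternatives were 2 forms of mouse block, quantile normalization, filters, fits of 2 groups, mean probe sets, a trended prior, and leaving out arrays or mice (the last added after the data were seen).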

Additional observations from a re-analysis of the deposited data

Results flagged for a closer look

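In 1 of the 96 groups of 5 arrays examined (24 tested members in 4 groups), an array stood apart from the rest of its group by Dixon's criterion, which chance meets in about 1 of 20 groups. Tnfrsf23 read 3.71 on the untreated array of wild-type mouse 2 and 4.11 to 4.27 on the other 4 untreated wild-type arrays. The gap was 0.722 of the range, past the 95% critical value for 5 samples.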

How the results depend on the processing

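No member reversed a called direction under any alternative, and 146 estimates that were called in neither fit changed sign. The 11 members called higher in both genotypes kept both calls in every fit that tested them, except Tnfrsf23 in knockout cells. Tnfrsf23 and Tnfrsf25 were not tested with the 60th percentile filter. Members called higher numbered 12 to 14 in wild-type and 10 to 12 in knockout cells when single arrays or mice were left out, and 10 to 15 and 10 to 14 under the other settings. Members called lower numbered 2 to 3 in each genotype with arrays or mice left out. With the mouse as a replicate block, signalling genes called lower rose to 6 (fixed) and 7 (random) in wild-type and to 8 and 9 in knockout cells, and quantile normalization gave 2 in knockout cells. Between genotypes after IL-33, 1 member was called higher (Tnf) with the random block, quantile normalization, the 60th percentile filter or the intensity trend, and 1 lower (Tnfrsf13b) with the random block. Leaving out arrays or mice gave 0 to 2 members higher and 0 to 2 lower. Signalling genes called higher there numbered 2 with the random block, the 60th percentile filter or the intensity trend, 0 with only both groups in the fit, and 0 to 4 with arrays or mice left out, and 0 to 1 lower. In untreated cells, leaving out arrays or mice gave 0 to 1 member higher, and 0 to 1 signalling gene higher and lower. The interaction gave 0 calls in every fit. The blocks changed no member's call other than those given in the report. The cause of these shifts was not tested. Dim readings limit Tnfrsf9, Tnfrsf25, Tnfrsf13c, Map3k8 and Traf1 to lower bounds.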
